A study of Mus musculus with 23 samples.

Results

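The genes described are the mouse splicing factors and heterogeneous nuclear ribonucleoproteins whose symbols begin with Hnrnp, Srsf, Snrp, Sf3a, Sf3b or Prpf, together with Tra2a and Tra2b. The rule takes genes by symbol alone and uses no measured value, but it was set with earlier results of these data known. The study's count tables list 58 such genes among 9480 genes in all. All 58 are in the table of the HA precipitate and 29 are also in the table of the flow-through. By family these are 17 hnRNP genes, 13 SR genes (with Tra2), 10 Sm and snRNP protein genes, 9 SF3A and SF3B genes and 9 Prpf genes.

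The libraries came from mice that carry RiboTag and a Cre driven by a mouse Gfap promoter, so that ribosomes of Gfap-expressing cells bear an HA tag; the genotype label of every library reads wild type. The spinal cord of each mouse was crushed severely at thoracic level 10, and the central 3 mm of the lesion was taken at day 14. The 3 groups had the injury only, the injury with a control hydrogel depot (hydrogel CT), or the injury with a hydrogel carrying growth factors, the depots being placed at day 2. The series title calls the growth factors FGF and EGF while the columns of the tables name BDNF and NT3, and the difference could not be settled here. Antibody to HA gave the precipitate (HA), which holds RNA bound to tagged ribosomes, and the remaining lysate is the flow-through (FT), which still contains astrocyte RNA. HA has 4 injury-only, 3 hydrogel CT and 3 growth factor libraries, and FT has 4, 4 and 5. Title numbers of the injury-only libraries lie in a range apart from those of both hydrogel groups, so hydrogel and cohort cannot be told apart, and nothing in the labels says that a number is 1 animal.

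Splicing removes introns from pre-mRNA in the spliceosome, whose core is a set of small nuclear RNAs packed with Sm proteins. SF3A and SF3B are parts of the U2 particle and bind the branch point, and several Prpf proteins act in the U4/U6.U5 tri-snRNP or the complex built around Prpf19. SR proteins mostly bind exonic enhancers and promote inclusion, and hnRNP proteins bind nascent RNA and often oppose it. Both groups are RNA-binding proteins of nearly every cell, including astrocytes, so their mRNAs mark no single cell type.

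Depth limits all of these values. A few loci of ribosomal RNA origin took a large and uneven part of the counts. Yam1 alone held 87.8% to 93.1% of the counts in HA injury-only libraries, 40.1% to 57.6% in HA hydrogel CT and 67.6% to 75.7% in HA growth factor libraries. In FT it held 89.7% to 93.1%, 28.3% to 67.9% and 13.8% to 88.7% of the same groups. Protein-coding genes held most counts in FT libraries 1732 (79.9%) and 1762 (61.2%). The members' counts per library ranged from 876 to 4504 in HA injury-only, from 18280 to 35996 in HA hydrogel CT and from 1640 to 12214 in HA growth factor libraries. In FT they ranged from 2 to 1397, and 1 growth factor library, number 1645, had only 2. For astrocyte, microglia and neuron markers the fractions followed their labels: of 13 astrocyte markers tested, 11 were higher in HA and none lower, whereas 9 of 10 microglia and macrophage markers and 6 of 9 neuron markers were lower in HA. No endothelial marker is listed in both tables, and 1 of 2 fibroblast markers tested was lower in HA. Markers of oligodendrocytes (4 of 11) and of their progenitors (5 of 6) were also higher in HA. Their median log2 differences were 1.19 and 2.57, against 2.255 for the astrocyte markers and 0.28 for all genes. HA is therefore not specific to astrocytes, and the part of these other cells in the results below was not tested.

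**Figure D1:**
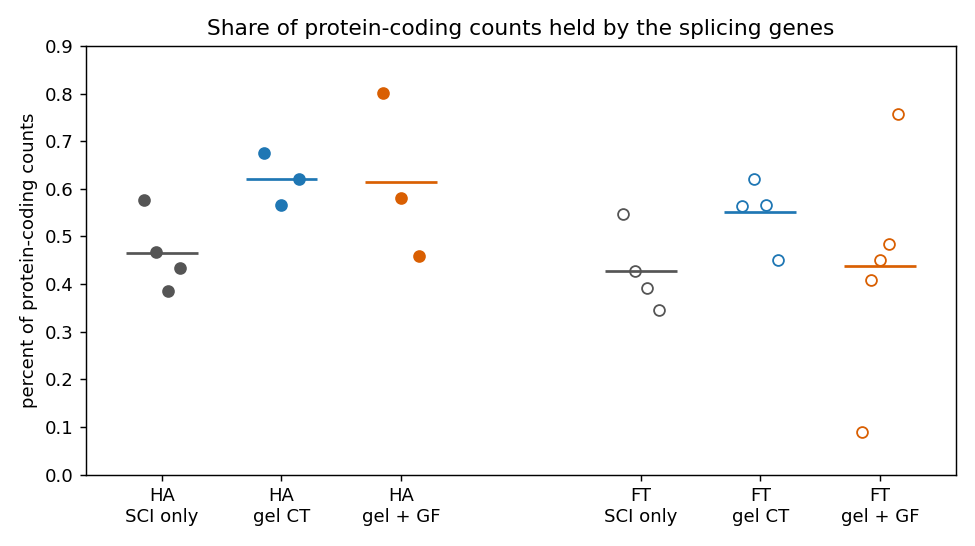
Percent of protein-coding counts held by the splicing genes in each library (y axis), by fraction and treatment (x axis); points are libraries, lines are group means, filled points are HA and open points FT. The HA injury-only libraries lie between 0.385% and 0.577%, and FT library 1645 lies lowest at 0.0889%.

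Together the 58 genes held 0.385% to 0.577% of protein-coding counts in the HA injury-only libraries, 0.565% to 0.676% in hydrogel CT and 0.458% to 0.802% in growth factor libraries (ribosomal RNA loci left out). In FT the 29 listed genes held 0.346% to 0.548%, 0.451% to 0.621% and 0.0889% to 0.757%. All these ranges overlap between the groups of a fraction. The shares of the 2 fractions cover different numbers of genes and are not compared.

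Of the 100765 member counts in HA, the hnRNP genes held 54.4%, the SR genes 17.8%, SF3 17.7%, Prpf 5.14% and the Sm and snRNP proteins 4.9%. Only 4 genes made up 50.1% of them: Hnrnpa2b1 (27766 counts), an hnRNP that binds pre-mRNA and also carries RNA to sites in the cell; Hnrnpa0 (8859), its relative; Srsf2 (7661), an SR protein that acts on exons; and Sf3b2 (6208), a subunit of SF3B. At the other end 9 of the 58 had under 100 counts over all HA libraries.

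Scaled for transcript length, the same genes led their families. Levels are given as counts per 1e6 (CPM, after TMM scaling of all genes in the fit, ribosomal loci included) per kilobase, as mean ± SD over the 10 HA libraries. Hnrnpa2b1 stood at 51.9 ± 57.3, Srsf2 at 15 ± 12.9, Snrpd1, a Sm core protein, at 11.3 ± 4.85, Sf3b2 at 9.82 ± 3.98 and Prpf4b, a kinase of the tri-snRNP, at 1.06 ± 0.472 CPM per kilobase. Hnrnpa0 (12.5 ± 7.91) and Snrpd1 do not differ beyond their spread, nor do Snrpd1 and Sf3b2. The SD of Hnrnpa2b1 was larger than its mean, while that of Sf3b2 was less than its mean. Sf3b6, the SF3B subunit that lies at the branch point, had 9.55 ± 8.03 and does not differ from Sf3b2 beyond the spread. FT levels are in the same unit but were scaled in a separate fit, so they are not compared with the HA levels. Over the 13 FT libraries the highest mean of each family, outside the Prpf genes, belonged to Hnrnpa2b1 (56.4 ± 42.3), Srsf2 (31.9 ± 23.5), Sf3b6 (18.4 ± 24.2) and Snrpd1 (11.3 ± 13.5). Sf3b2 (12.2 ± 10.8) and Sf3b1 (10.9 ± 6.36) followed Sf3b6 in FT, and these 3 do not differ beyond their spread.

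**Figure D2:**
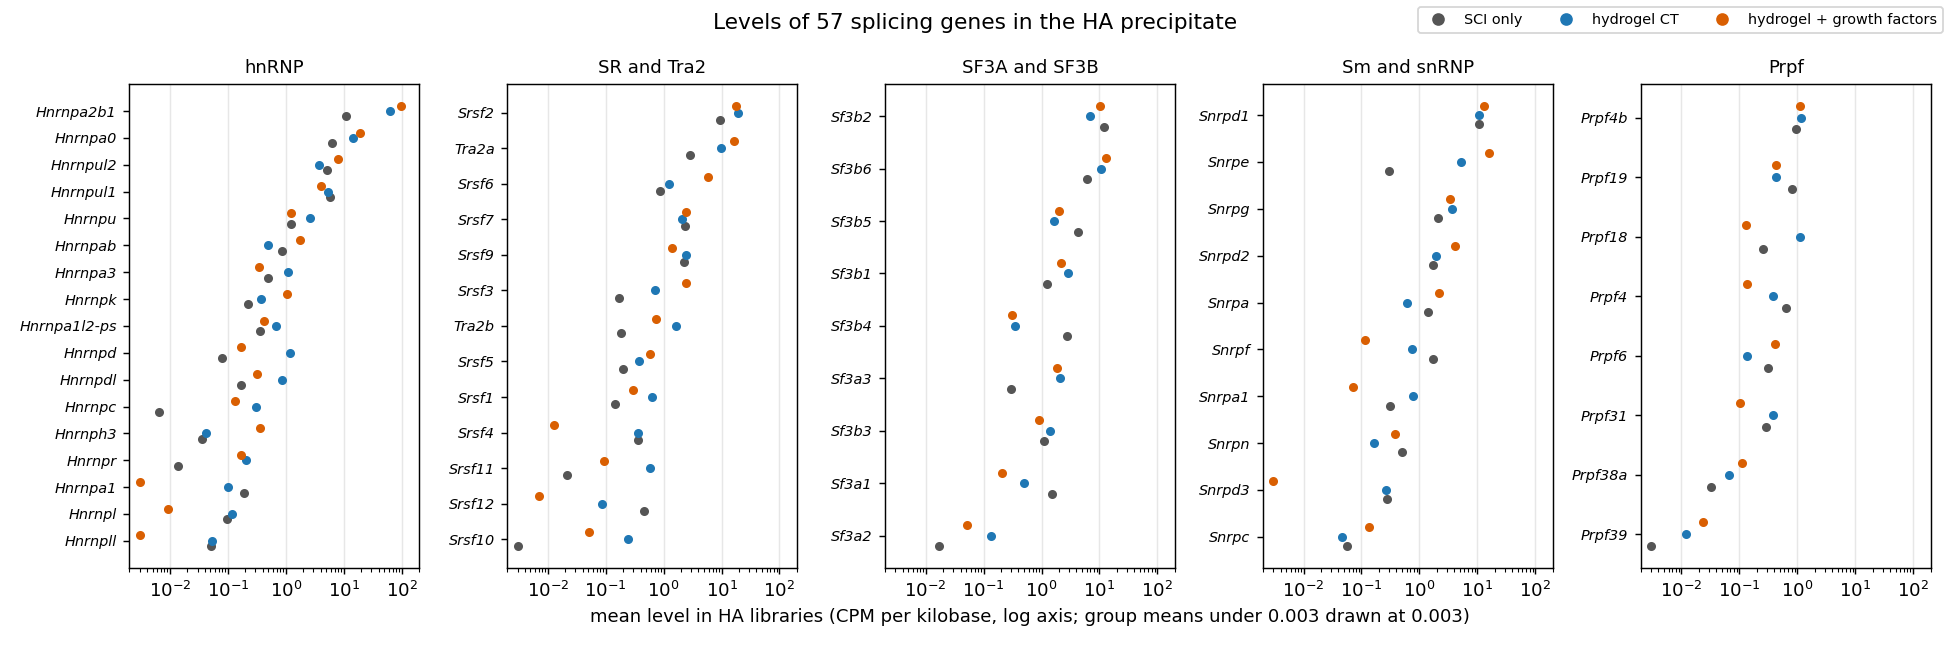
Mean level of each of 57 of the 58 genes in HA libraries (x axis, CPM per kilobase, log axis) by family, with 1 point for each treatment (SCI only, n = 4; hydrogel CT, n = 3; hydrogel with growth factors, n = 3). Hnrnpa2b1 is highest at 51.9 over all HA libraries, and Prpf4b leads its family at 1.06.

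The 29 genes listed in HA only were mostly the thinly counted ones, with a median of 133 summed counts (range 12 to 1057) against 1635 (289 to 27766) for the 29 listed in both tables; they hold 5.99% of the HA member counts. Among hnRNP genes these were Hnrnpr (1057), Hnrnpdl (350), Hnrnpk (345), Hnrnpc (131), Hnrnpa1l2-ps (126), Hnrnpl (46), Hnrnpa1 (43), Hnrnpll (40) and Hnrnph3 (23). Among SR genes they were Srsf1 (614), Srsf3 (494), Srsf11 (171), Srsf10 (166), Srsf5 (162), Srsf4 (139) and Srsf12 (109). The Sm and snRNP genes were Snrpf (172), Snrpa1 (170), Snrpd3 (154), Snrpn (108), Snrpa (100) and Snrpc (79). Sf3a3 (650) and Sf3a2 (53), and Prpf19 (281), Prpf6 (133), Prpf31 (80), Prpf38a (32) and Prpf39 (12), completed them. Their row in HA does not show that they are absent from FT, whose summed member count was only 3743.

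Each gene's counts came from very few transcript rows. GENCODE M21, an annotation on the mm10 build, has 392 transcripts for these 58 genes (median 6 per gene), and the HA table lists 67 rows, with 51 genes on 1 row. Hnrnpk, whose 34 annotated transcripts are the most of any member, has 1 row. Of the 67 rows, 11 are annotated as retained-intron transcripts, and 8 genes have no row of protein-coding type: Snrpa, Snrpc, Srsf11, Hnrnph3, Hnrnpll and Prpf31 are listed on retained-intron rows, Prpf39 on a nonsense-mediated decay row and Hnrnpa1l2-ps on a processed pseudogene. Rows not of coding type hold 0.727% of the member counts. How reads shared by several transcripts were counted is not given in the sources used here, and its part in the low level of some members was not tested.

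Hnrnpa1 and Hnrnpa1l2-ps, named here after their values were seen, are a gene and a near-identical copy that both have counts. Hnrnpa1, an abundant nuclear hnRNP in many tissues, had 43 counts over the HA libraries, and its processed pseudogene had 126. The Hnrnpa1 row lies at chr15:103240432-103244955 (plus strand, mm10) and the copy at chr13:74864305-74865356 (plus strand). Over 961 aligned bases 96.3% were identical, with an identical run of 153 bases. The first 60 coding bases of Hnrnpa1 and the matching start of the copy, from GENCODE M21, are shown because they let a reader see how few bases separate the loci; capitals mark the 3 bases that differ.
Hnrnpa1: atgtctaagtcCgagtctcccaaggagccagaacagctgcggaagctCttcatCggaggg
Hnrnpa1l2-ps: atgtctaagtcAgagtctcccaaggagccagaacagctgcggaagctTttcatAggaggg
Reads within an identical run cannot be assigned to 1 locus, so neither count is firm.

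The comparison of HA with FT asks which transcripts were enriched in the precipitate of tagged ribosomes. It used the 10 title numbers present in both fractions and the 4781 genes listed in both tables. Below, a pair means the HA and FT libraries of the same title number. Tallies of pairs are descriptions and no part of the test. Of the 29 members in both tables, 20 passed the filter on low counts, and 5 of these 20 (25%) differed between the fractions, against 678 of 3295 genes tested (20.6%). Hnrnpul2, Sf3b2, Hnrnpa2b1 and Sf3b5 were higher in HA (background 13.2% of genes higher) and Srsf9 was lower (background 7.37% lower). These shares are near the background. The members' median log2 difference was 0.45 (range -1.81 to 1.63) against 0.28 over all genes, and 15 of 20 were above 0, against 60.1% of all genes. Fewer cells of a type and less RNA per cell cannot be told apart in such bulk samples.

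**Figure D3:**
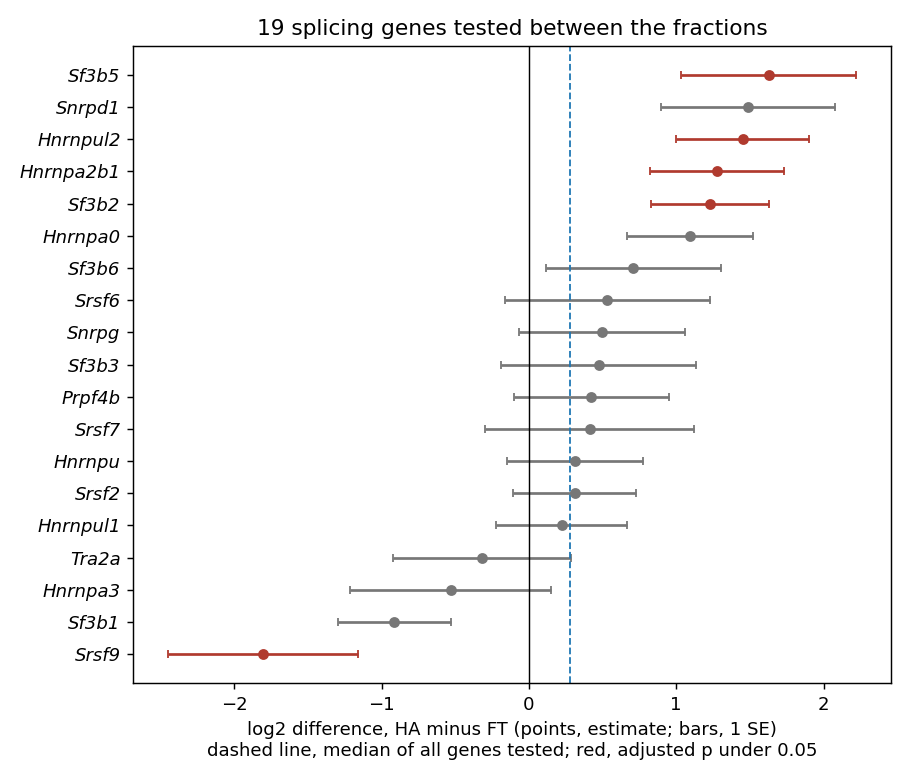
Log2 difference between HA and FT (x axis, HA minus FT) for 19 of the 20 members tested, with bars of 1 SE; red points have an adjusted p under 0.05 and the dashed line is the median of all genes, 0.28. Of the 19 estimates shown, 15 lie above 0, and Srsf9 lies lowest at -1.81.

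Hnrnpul2, an hnRNP U-like protein (chr19:8820010-8834143, plus strand, mm10), stood at 18 to 147 CPM in the 10 HA libraries (median 43.9) and at 0 to 31.7 CPM in FT (median 15.95). It was higher in HA in 9 of 10 pairs of the same number. Its log2 difference was 1.45 (SE 0.45; edgeR quasi-likelihood test, Benjamini-Hochberg adjusted p = 0.0196). The groups overlap, and the highest HA value belongs to library 1687. Without number 1724 the adjusted p was 0.0531 and without 9843 it was 0.0501.

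Sf3b2 (chr19:5273932-5295455, minus strand) was higher in HA in all 10 pairs, at 23.1 to 106 CPM (median 51.5) against 0 to 44.3 CPM in FT (median 23.6). The log2 difference was 1.23 (SE 0.40; edgeR adjusted p = 0.0268). The call was lost without number 9596, where the adjusted p was 0.0833. Sf3b5, the smallest subunit of the complex (chr10:13005343-13009183, plus strand), reached 1.95 to 65.5 CPM in HA (median 14.6) and 0 to 16.3 CPM in FT (median 6.07), and was higher in HA in 9 of 10 pairs. Its log2 difference was 1.63 (SE 0.59; edgeR adjusted p = 0.047), and it rests on few FT counts, with 3 of 10 FT libraries at 0. Leaving out any 1 of numbers 1759, 1762, 9596, 9843, 9874 and 9935 ended its call (adjusted p 0.0646 to 0.116).

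Sf3b1, the largest subunit of SF3B, had a negative difference that did not pass the edgeR test. It stood at 7.09 to 39 CPM in HA (median 22.7) and at 18.3 to 96.5 CPM in FT (median 36.2), with 1 of 10 pairs higher in HA, and its log2 difference was -0.91 (SE 0.39; edgeR adjusted p = 0.093). DESeq2 called it lower in HA (-1.02, adjusted p = 0.0119), as did edgeR with DESeq2's size factors (-1.02, adjusted p = 0.0497) and without number 1732 (-1.045, adjusted p = 0.0396). Within a library the ratio of Sf3b2 to Sf3b1 counts needs no scaling between libraries. Summed counts were 6208 and 3665 in HA (ratio 1.69) and 229 and 301 in FT (ratio 0.761). The HA ratio was above the FT ratio in 9 of 10 pairs (0.5 added to each count), the exception being number 1732. Sf3b2 counts exceeded those of Sf3b1 in 9 of 10 HA libraries and in 2 of 10 FT libraries. The HA ratio was uneven, at 3.84 to 9.85 in injury only, 0.97 to 1.795 in hydrogel CT and 1.22 to 3.69 with growth factors. Several FT ratios rest on few counts of Sf3b2 and Sf3b1, such as 0 and 4 in 1687, 2 and 26 in 1724 and 1 and 8 in 1762. This pair of genes was picked after their values were seen, so the ratio is a description with no test.

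Hnrnpa2b1 (chr6:51462760-51469826, minus strand) stood at 12.6 to 494 CPM in HA (median 90.9) and at 0 to 117 CPM in FT (median 44.4). It was higher in HA in 9 of 10 pairs, with a log2 difference of 1.28 (SE 0.46; edgeR adjusted p = 0.0423). The call rests on single libraries: without number 1685, whose HA value is the highest, the log2 difference was 0.94 and the adjusted p 0.14. Leaving out 1724, 1759, 1762 or 9935 also ended the call (adjusted p 0.0549 to 0.0681). Within the hydrogel numbers the difference was 1.797 (SE 0.59; edgeR adjusted p = 0.0479) and within the injury-only numbers 0.75 (SE 0.67; adjusted p = 0.544). The difference between these cohorts did not pass a test of its own (edgeR interaction adjusted p = 0.909), and no gene of 3295 did.

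Srsf9, an SR protein (chr5:115327177-115333080, plus strand), was the member lower in HA, at 0.465 to 8.88 CPM (median 3.71) against 0 to 73.4 CPM in FT (median 12.6). It was higher in HA in only 1 of 10 pairs, number 1762, where FT had no count. The log2 difference was -1.81 (SE 0.65; edgeR adjusted p = 0.0425). Without number 9935, whose FT value is the highest, it was -1.31 with an adjusted p of 0.181. Leaving out 1685, 1724, 1759, 9596, 9843 or 9874 also ended the call (adjusted p 0.0603 to 0.0978). Within the injury-only numbers it was -2.62 (edgeR adjusted p = 0.0152), and within the hydrogel numbers -0.97 (adjusted p = 0.587).

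**Figure D4:**
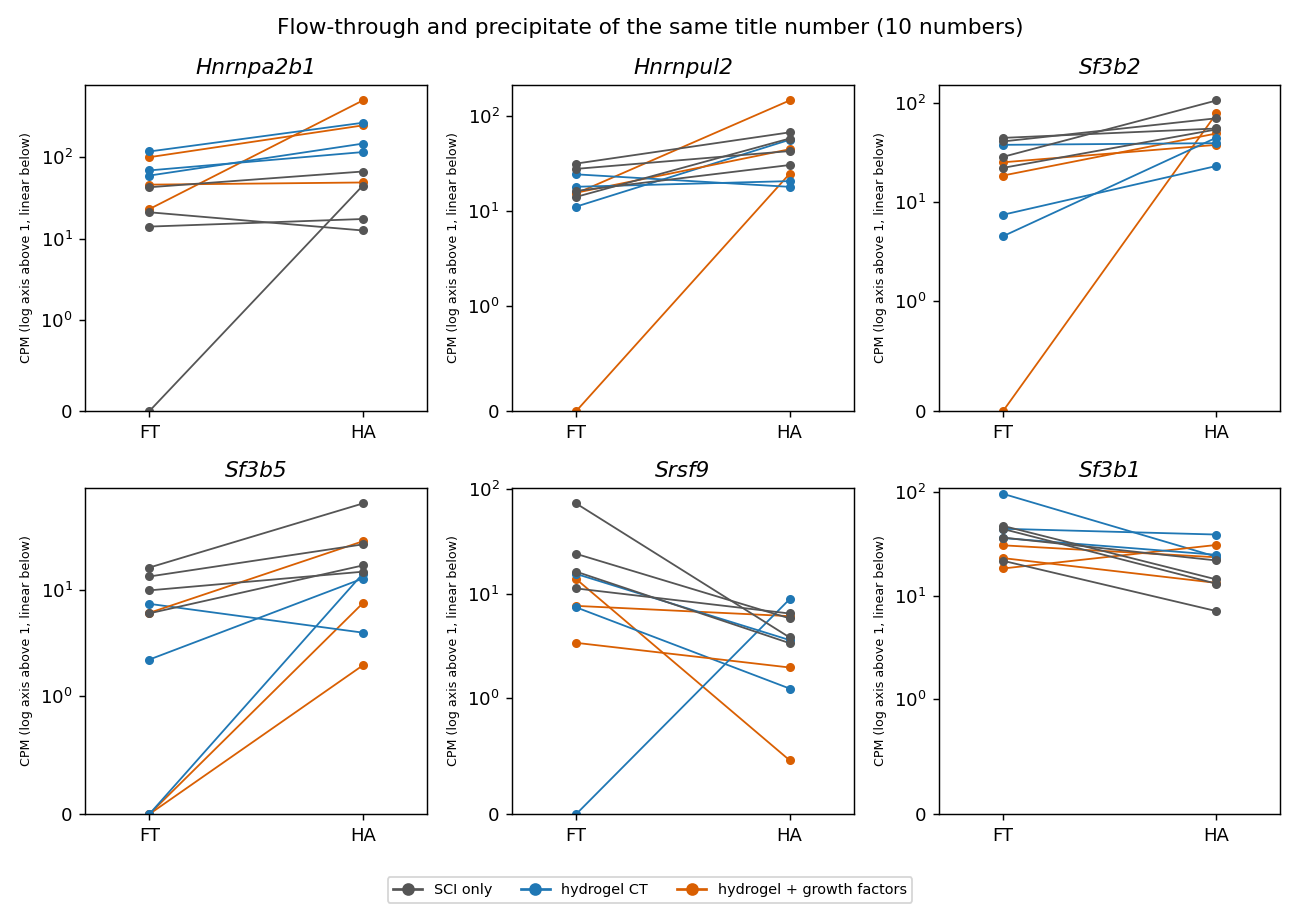
CPM of 6 members in FT and HA libraries of the same title number (y axis, logarithmic above 1 and linear below; 10 lines, coloured by treatment). Sf3b2 rises from FT to HA in all 10 numbers, while Sf3b1 and Srsf9 are higher in HA in 1 number each.

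The remaining members tested did not pass. Hnrnpa0 (log2 difference 1.10, SE 0.43, edgeR adjusted p = 0.065) and Snrpd1 (1.49, SE 0.59, adjusted p = 0.07) came nearest. Srsf2 (0.31, SE 0.42) and Hnrnpul1 (0.22, SE 0.45), both among the best counted members, lay near the median of all genes. By family the calls were 2 of 6 hnRNP genes, 2 of 5 SF3 genes and 1 of 5 SR genes, with none of 2 Sm and snRNP genes and none of 2 Prpf genes, beside 20.6% of all genes called. Families of 2 to 6 tested genes are too small to be read against that share. The balance of calls changed with the setting. With DESeq2's size factors in edgeR, 2 members were higher (Hnrnpul2 and Sf3b2) and 2 lower (Sf3b1 and Srsf9). With no filter on low counts 6 were higher and none lower. The share of all genes called under these 2 settings is not given, so the counts are no result about the members.

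Few splicing genes of the other chosen lists passed, beside the 13.2% of all genes higher and 7.37% lower in HA. Of 17 further core spliceosome proteins tested, 1 was higher in HA, Snw1, a component of the activated spliceosome (log2 difference 1.65, SE 0.59, edgeR adjusted p = 0.0438), with a list median of 0.86. Srpk2, a kinase of SR proteins, was the 1 of 6 SR-related genes to pass (1.62, SE 0.57, adjusted p = 0.0386), though in only 6 of 10 pairs. The exon junction protein Rbm8a was the 1 of 4 assembly and junction genes (1.49, SE 0.53, adjusted p = 0.0398). No gene of 11 other nuclear RNA-binding proteins passed.

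Splicing regulators with a bias to certain cell types went both ways, with 2 higher and 2 lower of 11. Qk, a STAR protein of glia, was higher in HA at 469 ± 282 CPM (SD, n = 10) against 176 ± 103 in FT, in all 10 pairs (log2 difference 1.25, SE 0.34, edgeR adjusted p = 0.00644). Msi2, of neural progenitors and glia, was also higher (1.74, SE 0.53, adjusted p = 0.0173). Mbnl1 was lower in HA at 19.3 ± 9.87 against 77.3 ± 47.4 CPM (log2 difference -1.95, SE 0.42, adjusted p = 8.38e-04), and so was the neuronal Nova1 (-1.87, SE 0.65, adjusted p = 0.0375). Nuclear noncoding RNAs, which ribosomes do not translate, were lower in 3 of 4: Malat1 (-2.04), Snhg11 (-1.93) and Meg3 (-1.70).

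Treatment was then compared within HA. None of the 48 members that passed the filter was called by edgeR in any of the 3 comparisons. For growth factors against hydrogel CT the background was 6 of 6654 genes (0.0902%), for hydrogel CT against injury only 13 (0.195%) and for growth factors against injury only 29 (0.436%). At an unadjusted p under 0.05 there were 0, 8 and 12 of 48 members (0%, 16.7% and 25%), against 13.3%, 12.7% and 21% of all genes. DESeq2 called 0 of 41, 1 of 34 and 3 of 41 members to which it gave an adjusted p, against 5.03%, 4.91% and 12% of genes. The members' median log2 differences were -0.13, 0.79 and 0.66, against -0.14, 0.27 and 0.12 over all genes. All hydrogel CT libraries lay above all injury-only libraries for 12 of 48 members (25%) and below them for 1 (2.08%), against 12.7% and 6.21% of the genes tested. For growth factors against injury only this held for 4 members (8.33%) and 1 (2.08%), against 5.68% and 8.51% of genes. Some of the members higher in hydrogel CT (Srsf10, Srsf11 and Sf3a2) passed the filter only through their counts in the hydrogel CT libraries. The filter thus favours tallies with hydrogel CT higher, for the members and for all genes, so these tallies are descriptions only. Whether the members differ from other genes in these shares was not tested. The last 2 comparisons share the injury-only libraries, and both carry the cohort as well as the hydrogel. Protein-coding genes held 0.9% to 3.92% of counts in injury-only, 26.3% to 46.1% in hydrogel CT and 3.56% to 14.5% in growth factor libraries. The summed level of 11 microglia and macrophage markers was 63.1 to 516 CPM in injury-only, 15 to 108 in hydrogel CT and 85.2 to 108 in growth factor libraries. The part of either in the differences was not tested.

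Hnrnpa2b1 came nearest to a call. Its HA values were 38.5, 8.68, 6.88 and 22.9 CPM in the injury-only libraries, 87.9, 70.7 and 162 in hydrogel CT and 323, 26.5 and 149 with growth factors. Hydrogel CT lies wholly above injury only, and growth factors do so except for library 1687. The log2 difference from injury only was 3.11 with growth factors (SE 0.74; edgeR adjusted p = 0.0546) and 2.47 with hydrogel CT (SE 0.73; adjusted p = 0.183). The first passed in 5 of 12 alternatives, with adjusted p from 0.00772 to 0.174. The authors' deposited table, which lists transcript rows, gives 3.18 (false discovery rate 0.00599) and 2.61 (0.0393). Of its 10389 rows, 412 pass for growth factors against injury only (3.97%), 150 for hydrogel CT against injury only (1.44%) and 62 for growth factors against hydrogel CT (0.597%), with 2, 1 and 0 member rows. Hnrnpa2b1 alone made up 3.04% to 11.4% of member counts in injury-only libraries, 18.5% to 35.1% in hydrogel CT, and 43.5%, 6.34% and 36% in the growth factor libraries 1685, 1687 and 1732.

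Its flow-through pointed the same way without passing. FT values were 90.7, 31.7, 49.6 and 0 CPM in injury only, 160, 94.6, 93.3 and 198 in hydrogel CT, and 0, 41, 108, 202 and 198 with growth factors. In the same order these are 129, 14, 22 and 0 counts, then 6, 16, 31 and 26, then 0, 5, 6, 15 and 147. Hydrogel CT lies above injury only in every library, which held for 27 of 610 genes tested (4.43%), though the nearest values are 93.3 and 90.7 CPM. The FT groups carry the cohort as well as the hydrogel, as in HA, so they are no independent support. The log2 difference of 1.52 (SE 0.76) had an edgeR adjusted p of 0.281. Growth factors differed from injury only by 1.36 (SE 0.73, edgeR adjusted p = 0.315).

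Snrpe, a Sm ring protein (chr1:133603871-133610291, minus strand), was next in growth factors against injury only. Its values were 0.15, 0, 0.459 and 0 CPM in injury only, 3.4, 3.47 and 0.99 in hydrogel CT and 0.914, 22.2 and 1.2 with growth factors. Groups with hydrogel lie above injury only, where the 4 libraries hold 6 counts in all, and library 1687 sets the growth factor mean. The log2 difference was 5.47 (SE 1.504; edgeR adjusted p = 0.0899), and the authors' deposited table gives 5.45 with a false discovery rate of 0.0154. Hnrnpa0 followed, at 24.2, 15.6, 10.3 and 16.7 CPM in injury only against 52.1, 78.8 and 21.6 with growth factors (log2 difference 1.60, SE 0.58, edgeR adjusted p = 0.153).

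Srsf10, an SR protein that can repress splicing, had no count in the 4 injury-only libraries and 49, 23 and 89 counts in hydrogel CT. Were the injury-only group given 3 counts in all, pooled hydrogel CT would be 9.74-fold higher, at 0.947 against 0.0972 CPM. This pooling leaves out the spread between libraries, so the value is no lower bound. Growth factor libraries had 1, 1 and 3 counts. The edgeR adjusted p of hydrogel CT against injury only was 0.173, and the gene's values lie near the limit that depth allows. Hnrnpd, an AU-rich element binding hnRNP, stood at 1.51, 8.29 and 14.6 CPM in hydrogel CT against 0.0748, 1.35, 0.459 and 0.279 in injury only (log2 difference 3.94, SE 1.46, adjusted p = 0.275).

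Between the growth factor and the control hydrogel, the 3 members of smallest p were all lower with growth factors and none passed. Snrpa1, a U2 snRNP protein, stood at 0.183, 0 and 0.0859 CPM against 1.24, 1.29 and 0.411 (log2 difference -3.14, SE 1.54, edgeR adjusted p = 0.383). Prpf18, which acts at the second step of splicing, stood at 0.792, 0 and 0.601 against 2.12, 5.91 and 3.93 CPM (-2.99, SE 1.57, adjusted p = 0.419). Hnrnpd stood at 0, 2.81 and 0.687 CPM (-2.89, SE 1.55, adjusted p = 0.428). For 7 of 48 members (14.6%) all growth factor libraries lay below all hydrogel CT libraries, and for none above, against 14.5% and 3.85% of genes tested, so the lower share is that of the background. The filter favours this direction too, since Srsf10 and Srsf11, both counted here, passed it only through hydrogel CT. The all-gene median of this comparison changes sign with DESeq2's size factors, from -0.14 to 0.01, and the members' median with it, from -0.13 to 0.02.

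**Figure D5:**
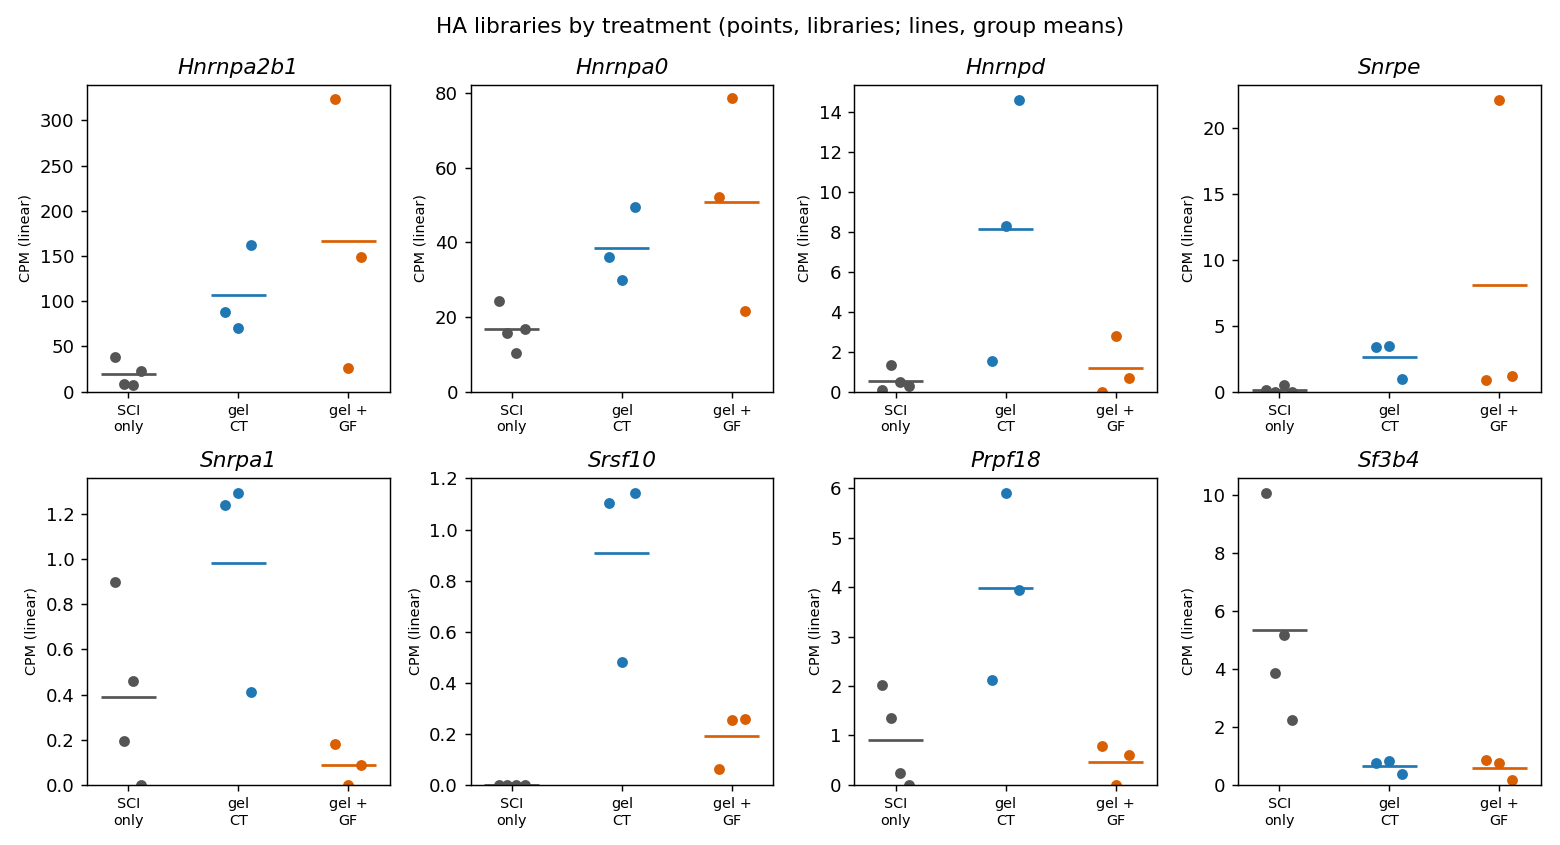
CPM of 8 members in each HA library (y axis, linear, from 0) by treatment (x axis); points are libraries and lines are group means. Hnrnpa2b1 lies between 6.88 and 38.5 in the injury-only libraries and reaches 323 with growth factors, where library 1687 is low at 26.5.

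Sf3b4, an SF3B subunit named after its values were seen, went the opposite way to Hnrnpa2b1. It stood at 10.1, 3.86, 5.16 and 2.23 CPM in injury only, 0.766, 0.814 and 0.386 in hydrogel CT and 0.853, 0.765 and 0.172 with growth factors, so that every hydrogel library lies below every injury-only library. The edgeR differences from injury only were -3.03 with hydrogel CT (adjusted p = 0.311) and -3.18 with growth factors (adjusted p = 0.171), while DESeq2 gave adjusted p of 0.00728 and 0.00861. In FT, where Sf3b4 had few counts and did not pass the filter, the groups overlapped. Values there were 2.265 to 13.9 CPM in injury only, 0 to 26.7 in hydrogel CT and 0 to 16.1 with growth factors.

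In FT, 5 members passed the filter (Hnrnpa0, Hnrnpa2b1, Sf3b1, Srsf2 and Tra2a) of 610 genes, and edgeR called none of them. The background was 0 genes (0%) for growth factors against hydrogel CT, 19 (3.11%) for hydrogel CT against injury only and 23 (3.77%) for growth factors against injury only. At an unadjusted p under 0.05 there were 1, 0 and 0 members, against 3.77%, 17.9% and 18.7% of genes. DESeq2 called none of the 5, against 0%, 9.41% and 13% of genes. Tra2a, which promotes exon inclusion, had the smallest p in growth factors against hydrogel CT: values were 0, 8.21, 18.1, 26.9 and 26.9 CPM against 26.7, 130, 78.2 and 38.1 (log2 difference -1.89, SE 0.76, edgeR adjusted p = 0.956). Against injury only (43.6, 104, 58.6 and 6.97 CPM) it was -1.48 (SE 0.74, adjusted p = 0.277). Tra2a had only 0, 1, 1, 2 and 20 counts in the growth factor libraries and 1, 22, 26 and 5 in hydrogel CT. Sf3b1 was likewise lower with growth factors, by -1.23 and -1.19 on the log2 scale (adjusted p = 0.956 and 0.309).

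The authors' deposited FT table passes 410 of 5001 rows for hydrogel CT against injury only (8.2%), 454 for growth factors against injury only (9.08%) and 0 (0%) for growth factors against hydrogel CT. Member rows among them were Hnrnpul1 (log2 -2.71, false discovery rate 0.0173), Sf3a1 (-5.65, 0.0397) and Prpf4 (-5.46, 0.0264) for hydrogel CT, and Srsf9 (-2.75, 0.0325) for growth factors, all lower than injury only. In counts, Hnrnpul1 had 166, 39, 62 and 3 in the injury-only libraries and 1, 2, 6 and 0 in hydrogel CT. Sf3a1 had 61, 3, 8 and 1 and Prpf4 had 24, 11, 8 and 1 in injury only. Neither had a count in hydrogel CT, so the size of their differences is not measured. Srsf9 had 34, 24, 17 and 27 in injury only and 0, 3, 1, 0 and 5 with growth factors. Protein-coding counts per FT library were 26899 to 255152 in injury only, 4249 to 39203 in hydrogel CT and 2251 to 115730 with growth factors. None of these 4 genes passed the filter on low counts in the fit of all 3 groups. In a fit of hydrogel CT and injury only Hnrnpul1 passed the filter, and edgeR called it lower (log2 difference -2.50, adjusted p = 0.0226).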

How the data were processed

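The deposited tables, 1 for each fraction, hold whole-number counts per transcript row, and the authors' log2 fold changes and p-values adjusted as false discovery rates, per the file headers. The authors worked on the mm10 build with edgeR and CASAVA 1.8.2, per the submitters' processing notes; no source used here names the aligner, the counter, its handling of strand or the annotation. Rows without a gene symbol were left out (0.00272% to 0.319% of a library's counts), rows of a gene were summed, and 45 columns of normalised values per sample were not used.

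Genes were tested with edgeR 4.0.16 (R 4.3.3; TMM, filterByExpr with a minimum count of 10, quasi-likelihood test, two-sided, Benjamini-Hochberg over all genes tested, threshold 0.05) and, as an alternative, with DESeq2 1.42.0. HA and FT were compared over 10 title numbers with treatment as covariate; treatments were compared in 1 fit per fraction. The code of the fits was run on simulated counts with known changes. Those counts were drawn from a common mean profile, so they do not show how the tests perform on libraries this uneven. P-values measure the spread between libraries, which may be technical; no 2 libraries of a group agreed within sampling noise (chi-square per degree of freedom 5.91 to 292).

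Named members are those past the threshold or, where none passed, the 3 of smallest p, with the family leaders by level and all genes listed in 1 table only; 1 member enters the counts and medians but is not reported by name here. The members, lists and rules were chosen with earlier results of these data known. Transcript positions come from GENCODE M21, to which 98.3% (HA) and 99.1% (FT) of rows matched. Levels per kilobase divide CPM by the length of the listed transcript. Alternatives left out each title number, filters, scaling or cohorts.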

Additional observations from a re-analysis of the deposited data

Results flagged for a closer look

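Single libraries stood apart for 5 of the 32 group values checked, of which chance alone would flag about 1 in 20. In the fit of both fractions these were Hnrnpul2 in HA library 1687 (146.6 CPM, next 67.57), Hnrnpa2b1 in HA library 1685 (493.6, next 263.2), Sf3b5 in HA library 9935 (65.48, next 28.82) and Srsf9 in FT library 9935 (73.37, next 24.15). In the FT fit, Hnrnpa0 in growth factor library 1732 stood at 204.4 CPM against 53.88 in the next. Each gap to the nearest library exceeded Dixon's critical value for its group size.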

How the results depend on the processing

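Between HA and FT, 5 of 20 members passed (25%), against 20.6% of all genes tested. With DESeq2 the number was 7 of 20 (35%), against 25.9% of genes. It was 4 with DESeq2's size factors in edgeR, 6 with no filter on low counts and 5 without the ribosomal RNA loci. Within the injury-only numbers it was 1 (Srsf9) and within the hydrogel numbers 1 (Hnrnpa2b1). Leaving out 1 title number gave 2 to 8. Apart from DESeq2, the share of all genes called under these alternatives is not given here. Their counts are therefore not read as a result about the members. With the title number as a replicate block in edgeR, 4 members passed (Hnrnpa0, Hnrnpul2, Sf3b2 and Srsf9). Hnrnpa0 was added (adjusted p = 0.0396), while Hnrnpa2b1 (0.0514) and Sf3b5 (0.0638) did not pass. The main fit has no such block because the labels do not say that a number is 1 animal. Same-numbered libraries had deviations that correlated at 0.0086 to 0.104, above 0.1 in 2 of 10 numbers. With FT libraries this shallow, such values cannot decide whether the numbers are pairs. Sf3b2 passed in 14 of 17 alternatives, Hnrnpul2 in 13, Hnrnpa2b1 in 9, Srsf9 in 8 and Sf3b5 in 7.

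Within HA, hydrogel CT against injury only gave 1 member with DESeq2 (Sf3b4) and 1 with only the 2 groups in the fit (Hnrnpa2b1). Growth factors against injury only gave 3 with DESeq2 (Hnrnpa2b1, Sf3b4 and Srsf3), 1 with no filter and 1 without the ribosomal loci (Hnrnpa2b1 in both), and 0 to 2 when 1 library was left out: 1 without 1687 and 2 without 1732. In FT, hydrogel CT against injury only gave 1 with only the 2 groups in the fit (Hnrnpul1, log2 difference -2.50). No other alternative gave a call within a fraction, and of 296 refits of the named members none changed sign. The cause of these changes was not tested. Apart from DESeq2, the share of all genes called is again not given, so the counts are no result about the members. Depth limits FT most, where a library holds 2 to 1397 member counts.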
